A study of Homo sapiens with 12 samples.

Results

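The insulin-like growth factor (IGF) family was described in WI-38, a fibroblast line from human embryonic lung, across 6 groups of small interfering RNA (siRNA) transfections. Its members were taken by symbol as the ligands IGF1 and IGF2, the receptors IGF1R and IGF2R, and the binding proteins IGFBP2 to IGFBP7. All 10 had a row among the 13937 genes of the deposited table, and all 10 were among the 13894 genes tested. Membership went by symbol and not by a threshold on values, although the family was picked with earlier results of these data known. Transcript 3′ ends were sequenced in 12 libraries, 2 for each group, and levels are given as CPM, counts scaled to a common library size by the authors. About 1 fragment is read per transcript, so levels of different genes can be set beside each other without a length correction.

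The cGAS_YT group received siRNAs to cGAS, the sensor of DNA in the cytosol, together with siRNAs to YAP and TAZ, the transcriptional coactivators at the end of the Hippo pathway. The STING_YT group received siRNAs to STING, the adaptor protein through which cGAS acts, together with the YAP and TAZ siRNAs. The YT, cGAS and STING groups received one of these siRNA sets with the control siRNA, and the control group received the control siRNA alone. All 6 groups were WI-38 cells transfected with a lipid reagent. How long after transfection the cells were harvested is not given in the sources used here. Each siRNA set was a transient knockdown, read at the level of transcripts. The labels do not say whether the libraries of a group came from separate cultures. The p-values therefore cover the spread between these libraries, which could be technical alone. In bulk RNA, fewer cells of a kind and less RNA per cell cannot be told apart.

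IGF1 and IGF2 are secreted growth factors that act through IGF1R, a receptor tyrosine kinase that signals through IRS adaptor proteins, PI3K and AKT. IGF2R, also the cation-independent mannose 6-phosphate receptor, has no kinase and carries IGF2 and lysosomal enzymes to lysosomes. The binding proteins hold IGFs outside the cell, and proteases such as PAPPA release the ligand by cleaving them. Fibroblasts are known to secrete IGFs and several of the binding proteins, and IGFBP3, IGFBP5 and IGFBP7 are also known as secreted products of senescent cells.

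Promoters of 3 members are shown because the results below turn on these genes and they differed in the motifs searched. They are windows from 250 bases before to 50 bases after the annotated start, taken from RefSeq on GRCh38.p14, each read along the gene's strand, which is the minus strand for all 3, and capitals mark a motif match. The IGF1 window lies at chr12:102481698-102481997, the IGFBP3 window at chr7:45921223-45921522 and the IGFBP5 window at chr2:216695500-216695799.
IGF1: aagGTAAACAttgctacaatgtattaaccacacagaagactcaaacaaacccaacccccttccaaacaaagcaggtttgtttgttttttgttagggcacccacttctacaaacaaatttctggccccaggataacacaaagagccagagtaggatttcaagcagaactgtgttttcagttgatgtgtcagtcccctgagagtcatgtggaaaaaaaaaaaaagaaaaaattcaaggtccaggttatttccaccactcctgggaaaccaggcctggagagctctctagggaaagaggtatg
IGFBP3: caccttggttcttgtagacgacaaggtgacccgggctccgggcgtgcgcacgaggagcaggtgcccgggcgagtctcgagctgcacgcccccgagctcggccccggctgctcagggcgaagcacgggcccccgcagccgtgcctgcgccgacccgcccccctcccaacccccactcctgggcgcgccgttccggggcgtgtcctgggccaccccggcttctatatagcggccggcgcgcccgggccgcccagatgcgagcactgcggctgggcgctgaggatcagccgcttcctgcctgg
IGFBP5: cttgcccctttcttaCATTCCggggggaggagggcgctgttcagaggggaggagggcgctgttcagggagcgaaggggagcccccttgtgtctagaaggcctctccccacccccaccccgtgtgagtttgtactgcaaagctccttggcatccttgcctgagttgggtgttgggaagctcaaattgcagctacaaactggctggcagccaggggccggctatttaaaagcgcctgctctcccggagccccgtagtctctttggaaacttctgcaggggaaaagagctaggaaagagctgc

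The motifs searched on both strands were CATTCC for TEAD factors, through which YAP and TAZ bind DNA, GTAAACA for FOXO factors, TGACTCA for AP-1 and GAAA, any 2 bases and GAAA again for the interferon-stimulated response element. The TEAD letters were in 14.03% of 35116 promoter windows in the table, the FOXO letters in 3.42%, the AP-1 letters in 4.95% and the interferon letters in 3.57%. Windows were at hand for 8 members, 11 windows in all, and 2 of the 11 held the TEAD letters. IGFBP5 held CATTCC at 235 bases before its start, and IGFBP6 held its reverse complement at 101 bases before its start. The FOXO letters lay 247 bases before the IGF1 start shown and 186 bases before the IGFBP6 start. No other window of a member, that of IGFBP3 included, held any of the 4 motifs. A match describes letters only, and its absence says nothing of a factor.

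The siRNA targets and the identity of the cells were checked first. YAP1 lay between 12.6 and 24.6 CPM in the 6 libraries with YAP and TAZ siRNAs and between 82.2 and 114 CPM in the other 6, and WWTR1, the gene of TAZ, lay between 11.4 and 22.8 CPM against 93.5 to 144 CPM. MB21D1, the gene of cGAS, lay between 1.30 and 1.94 CPM in the 4 libraries with cGAS siRNAs, against 4.67 to 9.60 CPM in the other 8. TMEM173, the gene of STING, lay between 1.28 and 1.93 CPM in the 4 libraries with STING siRNAs, against 18.1 to 29.9 CPM in the other 8. All 8 fibroblast markers were present, with a summed level of 20324 to 34654 CPM, while 3 of 5 epithelial markers, all keratins, summed to 24.5 to 56.0 CPM. Of 4 haematopoietic markers CD68 alone had a row, at 3.33 to 6.23 CPM, and the endothelial, neural and hepatocyte markers listed are not analysed here. In the 4 libraries with cGAS siRNAs the interferon-stimulated gene MX1 lay between 246 and 780.4 CPM, against 9.50 to 51.0 CPM in the other 8. The summed fibroblast markers were also lower in those 4, at 20324 to 23047 CPM against 25316 to 34654 CPM. Single markers did not all go with the sum. By limma (adjusted p under 0.05), 1 of the 8 was higher and 4 lower in cGAS against control cells, beside 11.1% and 14.3% of all genes. In cGAS_YT against YT cells 3 were higher and 2 lower, beside 20.5% and 20.2%. The part of MX1-like expression or of the marker levels in the cGAS results was not tested.

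IGFBP5 and IGFBP7 carried most of the family's transcripts. IGFBP5, a binding protein that associates with extracellular matrix, ranked 8 among all genes by its mean level, and IGFBP7, which binds IGFs weakly, ranked 46. IGFBP4 ranked 272, IGF2R 799, IGFBP3 1081, IGFBP6 2971, IGF1R 3525 and IGF2 4589. IGF1 ranked 9463 and IGFBP2 ranked 10967. IGF1 reached 1 CPM in only 4 of the 12 libraries, those with cGAS siRNAs, and passed the level filter through them alone.

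**Figure D1:**
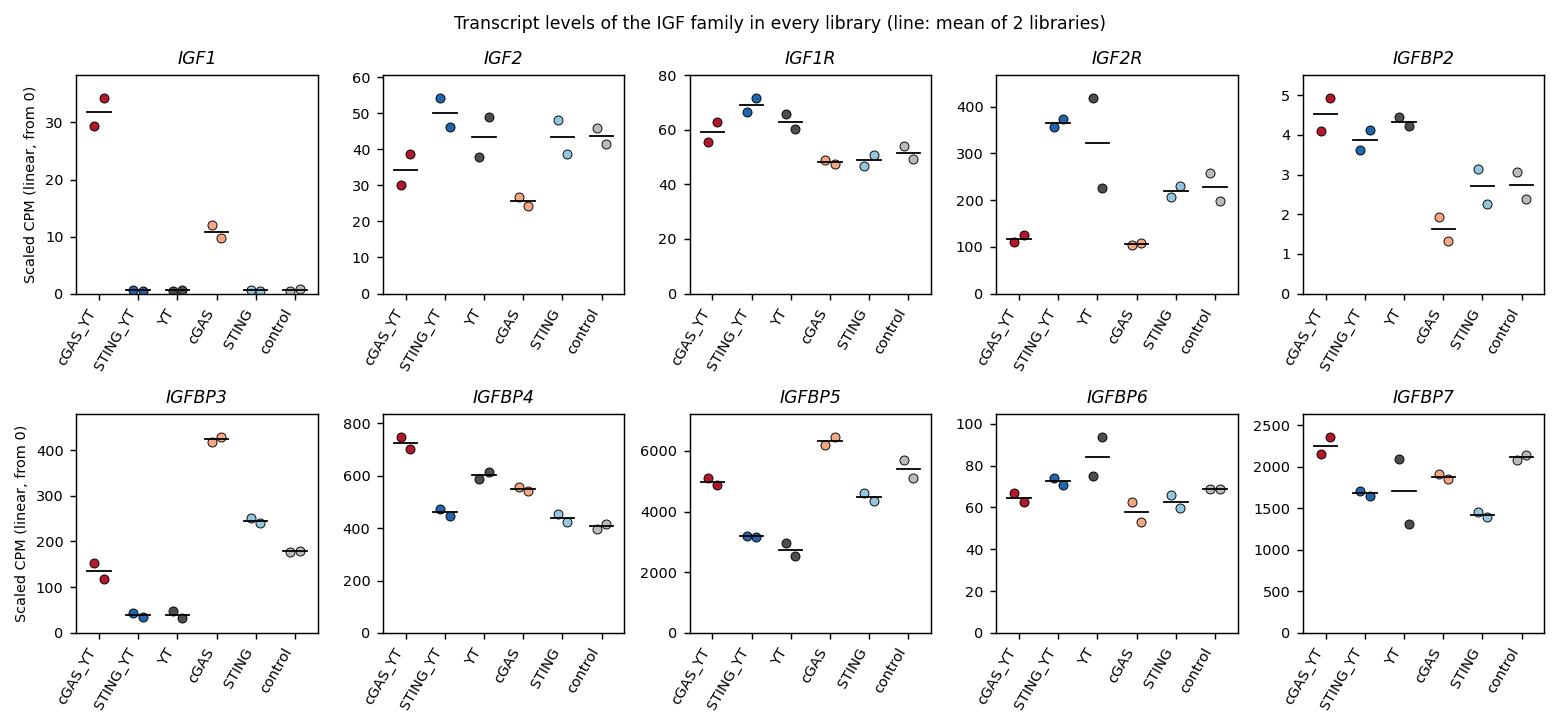
Scaled CPM of each of the 10 genes in every library, on linear axes that start at 0 and differ between panels. Points are libraries and lines are means of 2 libraries. IGF1 stands above 9 CPM only in the cGAS_YT and cGAS groups, and IGFBP3 is highest in the cGAS group at 423 CPM and lowest in the STING_YT and YT groups at 39.8 and 39.5 CPM.

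With YAP and TAZ siRNAs alone (YT against control), 2 members rose and 2 fell. IGFBP3 and IGFBP5 transcripts were lower, and IGFBP4 and IGF1R transcripts were higher. In that comparison 41.6% of all genes tested passed the same threshold, a limma adjusted p under 0.05, 20.6% as higher and 20.9% as lower, so 4 of 10 is a share near the background. The median log2 change was 0.14 over the members and 0.00 over all genes.

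With cGAS siRNAs alone (cGAS against control), IGF1, IGFBP3 and IGFBP4 rose, and IGF2 and IGF2R fell. These were 5 of 10 members, beside 25.4% of all genes (11.1% higher and 14.3% lower). IGF1 entered the test only through libraries with cGAS siRNAs and so had to differ there; its place in this count is a description. With STING siRNAs alone, IGFBP7 fell and no member rose by limma, 1 of 10 beside 15% of all genes (6.14% higher and 8.86% lower). These comparisons and the preceding one share their control libraries.

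The YAP and TAZ siRNAs were also compared within the other backgrounds. In cGAS_YT against cGAS cells, 4 members rose (IGF1, IGF1R, IGFBP2 and IGFBP4) and 2 fell (IGFBP3 and IGFBP5), beside 27.7% of all genes (15% higher and 12.7% lower). In STING_YT against STING cells, IGF1R and IGF2R rose and IGFBP3 and IGFBP5 fell, beside 38.9% of all genes (19.1% higher and 19.8% lower). IGF1R was thus called higher and IGFBP3 and IGFBP5 lower with YAP and TAZ siRNAs in each of the 3 backgrounds.

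With YAP and TAZ siRNAs present throughout, cGAS_YT cells differed from YT cells in 7 members, of which 5 rose and 2 fell, beside 40.7% of all genes (20.5% higher and 20.2% lower), IGF1 again among those that rose and subject to the same limit. STING_YT cells differed from YT cells only in IGFBP4, which fell, beside 34.1% of all genes (16% higher and 18.0% lower). The change with YAP and TAZ siRNAs was itself tested between backgrounds as an interaction. It differed between the cGAS and control backgrounds for 2 members, IGF1 and IGFBP5, both positive, beside 13.4% of all genes (7.50% positive and 5.93% negative). IGF1 passed the level filter only through libraries with cGAS siRNAs, so its place in this count is also a description. Between the STING and control backgrounds the change differed for 1 member, IGFBP4, which was negative, beside 7.88% of all genes (3.35% positive and 4.53% negative).

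**Figure D2:**
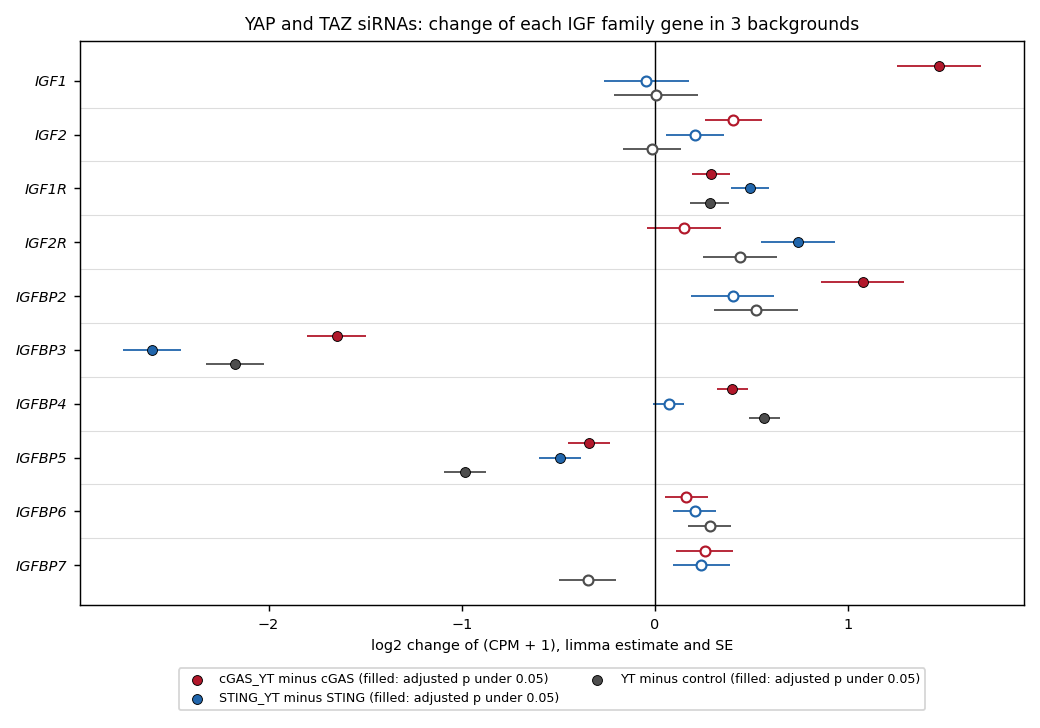
Log2 change of (CPM + 1) with YAP and TAZ siRNAs for each gene in the cGAS, STING and control backgrounds, as limma estimates with their SE. Filled points passed an adjusted p of 0.05. IGFBP3 lies furthest to the left in each background, at -1.65, -2.60 and -2.17, and IGF1 is filled only in the cGAS background, at 1.47.

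Of the ligands, IGF1, the growth factor known as the mediator of growth hormone action, had 29.4 and 34.3 CPM in cGAS_YT libraries, 12.02 and 9.72 CPM in cGAS libraries, 0.475 and 0.669 CPM in YT libraries and 0.363 and 0.795 CPM in control libraries. It had 0.666 and 0.457 CPM in STING_YT libraries and 0.683 and 0.536 CPM in STING libraries. The 4 libraries with cGAS siRNAs stood above the other 8 with no overlap, and both cGAS_YT libraries stood above both cGAS libraries. The values without cGAS siRNAs rest on few reads, 21 in the STING_YT group, 22 in the YT group, 23 in the STING group and 21 in the control group, each over 2 libraries. In the cGAS_YT and cGAS groups the reads were 1283 and 415.

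In cGAS against control cells IGF1 was 18.8-fold higher in mean CPM (log2(CPM + 1) change 2.92 ± 0.22 SE). The fold was 13.7 without control library 1 and 29.9 without control library 2, and the log2 scale understates it because of the pseudocount of 1 CPM. No p is given for this comparison, since the gene passed the level filter through the group where it is high. With YAP and TAZ siRNAs added to cGAS siRNAs, IGF1 averaged 31.8 ± 3.48 CPM in cGAS_YT cells and 10.9 ± 1.63 CPM in cGAS cells (SD, n = 2 each), a 2.93-fold rise (limma adjusted p 0.000103). In YT against control cells the log2 change was 0.00 ± 0.22, with overlapping libraries. The difference between these log2 changes was 1.47 ± 0.31 (limma interaction, adjusted p 0.00428), and with edgeR on recovered reads it was 1.55 with an adjusted p of 0.0552. Over all alternatives that adjusted p ranged from 7.33e-05 to 0.0552. The YT and control values rest on 22 and 21 reads, where the pseudocount keeps any log2 change small. The interaction therefore mostly restates the rise in cGAS_YT against cGAS cells.

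MX1, which like IGF1 was highest in the groups with cGAS siRNAs, had 780.4 and 246 CPM in the cGAS_YT libraries 9 and 10, where IGF1 had 29.4 and 34.3 CPM. In the cGAS libraries 7 and 8 MX1 had 554 and 529 CPM, where IGF1 had 12.02 and 9.72 CPM. The order of the 2 genes within a pair was opposite in the cGAS_YT libraries and the same in the cGAS libraries, and the part of interferon-stimulated expression in the IGF1 result was not tested.

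IGF2, the ligand of both receptors, had 26.8 and 24.3 CPM in cGAS libraries, against 45.8 and 41.3 CPM in control libraries. Both cGAS libraries were below both control libraries, and the mean was 58.6% of control (log2 change -0.75 ± 0.15, limma adjusted p 0.0014). In the other groups IGF2 had 30.1 and 38.5 CPM in cGAS_YT libraries, 54.2 and 46.0 CPM in STING_YT libraries, 37.8 and 49.0 CPM in YT libraries and 48.1 and 38.7 CPM in STING libraries. The cGAS group was the lowest of the 6 and overlapped no other, while the STING, YT and control libraries overlapped. Both cGAS_YT libraries were above both cGAS libraries, but that difference did not pass the test (log2 change 0.40 ± 0.15, limma adjusted p 0.0535). It passed without cGAS_YT library 9 (adjusted p 0.0252).

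IGF2 lies on chromosome 11, at 2129112 to 2149603 on the minus strand of GRCh38 in GENCODE release 29. A second entry of the same locus overlaps it and runs to 2158658, so the assignment of reads between them is uncertain. IGF1 lies on chromosome 12, at 102395874 to 102481744 on the minus strand.

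The mix of ligand transcripts therefore differed between groups. IGF1 made up 48.2% of the summed IGF1 and IGF2 level in cGAS_YT cells and 29.8% in cGAS cells. In STING_YT, YT, STING and control cells it made up 1.10%, 1.29%, 1.38% and 1.34%.

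Of the receptors, IGF1R had 66.3 and 71.6 CPM in STING_YT libraries, against 46.8 and 50.6 CPM in STING libraries. It had 65.6 and 60.2 CPM in YT libraries, against 53.9 and 49.2 CPM in control libraries. It had 55.4 and 62.9 CPM in cGAS_YT libraries, against 49.0 and 47.3 CPM in cGAS libraries. All 6 libraries with YAP and TAZ siRNAs were above all 6 without. The log2 change was 0.49 ± 0.10 in the STING background (limma adjusted p 0.000917), 0.28 ± 0.10 in the control background (adjusted p 0.032) and 0.29 ± 0.10 in the cGAS background (adjusted p 0.0399). The interaction tests did not separate these changes (limma adjusted p 0.421 for STING and 0.982 for cGAS). The call in the control background was lost without control library 2 or YT library 3 (limma adjusted p up to 0.194), and that in the cGAS background without cGAS library 7 or 8 or cGAS_YT library 10 (up to 0.299). No cGAS or STING comparison called IGF1R.

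IGF2R, which clears IGF2 from the cell surface, had 104 and 107 CPM in cGAS libraries, against 259 and 198 CPM in control libraries. It had 109.5 and 126 CPM in cGAS_YT libraries, against 419 and 226 CPM in YT libraries. The 4 libraries with cGAS siRNAs were below the other 8 with no overlap. IGF2R was 46.3% of control in cGAS cells (log2 change -1.09 ± 0.19, limma adjusted p 0.000462) and 36.6% of YT in cGAS_YT cells (-1.38 ± 0.19, adjusted p 2.4e-05).

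In STING_YT libraries IGF2R had 356 and 374 CPM, against 207 and 229 CPM in STING libraries. These libraries did not overlap and the rise was 1.67-fold (log2 change 0.74 ± 0.19, limma adjusted p 0.00549), with an adjusted p of 0.0538 when STING library 13 was left out. In YT against control cells the mean was also higher, but the 2 YT libraries differed 1.85-fold from each other and the test was not passed (0.44 ± 0.19, limma adjusted p 0.076). Without YT library 3 that change was -0.01, and without YT library 4 it was 0.88; it also passed without control library 1, at 0.63. The ratio of IGF2R to IGF1R levels was 1.99 in cGAS_YT and 2.20 in cGAS cells, and lay between 4.42 and 5.30 in the other 4 groups.

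IGF2R lies on chromosome 6 at 159969099 to 160113507 and IGF1R on chromosome 15 at 98648539 to 98964530, both on the plus strand.

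**Figure D3:**
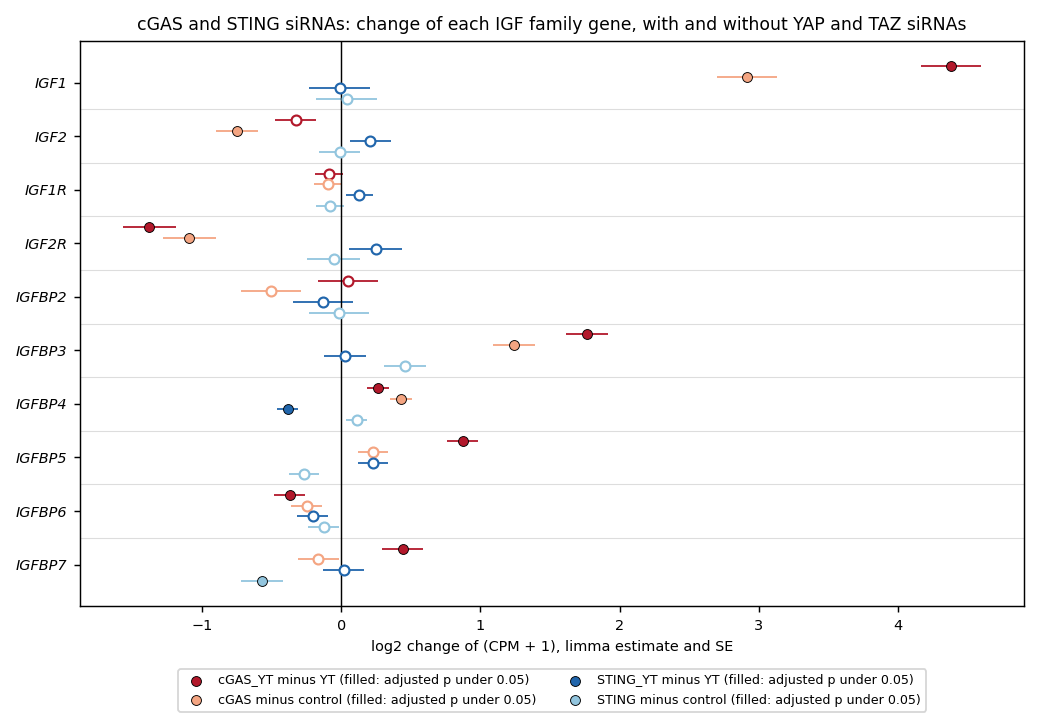
Log2 change of (CPM + 1) with cGAS or STING siRNAs for each gene, with YAP and TAZ siRNAs present (cGAS_YT and STING_YT minus YT) and without (cGAS and STING minus control), as limma estimates with their SE. Filled points passed an adjusted p of 0.05. IGF1 lies at 4.38 and 2.92 in the cGAS comparisons, IGF2R at -1.38 and -1.09, and IGFBP3 at 1.77 and 1.24. IGF1 passed the level filter only through libraries with cGAS siRNAs, so its filled points are a description and not a test.

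Of the binding proteins, IGFBP3, the main carrier of IGFs in serum, was the member that fell most with YAP and TAZ siRNAs. It had 47.2 and 31.7 CPM in YT libraries, against 176 and 179.7 CPM in control libraries. It had 44.4 and 35.2 CPM in STING_YT libraries, against 250.4 and 240.2 CPM in STING libraries. It had 153 and 118 CPM in cGAS_YT libraries, against 419 and 428 CPM in cGAS libraries. Every library with YAP and TAZ siRNAs was below every library without.

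IGFBP3 was 22.2% of control in YT cells (log2 change -2.17 ± 0.15, limma adjusted p 1.02e-08), 16.2% of STING in STING_YT cells (-2.60 ± 0.15, adjusted p 2.08e-09) and 32.0% of cGAS in cGAS_YT cells (-1.65 ± 0.15, adjusted p 8.35e-07). The differences between these log2 changes did not pass the interaction tests (limma adjusted p 0.26 for STING and 0.123 for cGAS), although the first passed without YT library 4 (0.00515) and the second without YT library 3 (0.000727). With cGAS siRNAs IGFBP3 was higher, 2.38-fold in cGAS against control cells (1.24 ± 0.15, limma adjusted p 1.57e-05) and 3.43-fold in cGAS_YT against YT cells (1.77 ± 0.15, adjusted p 1.18e-07). The cGAS_YT group thus lay below control, at 135 ± 24.8 CPM in cGAS_YT cells and 178 ± 2.34 CPM in control cells (SD, n = 2 each). In STING against control cells both libraries were higher, with a 1.38-fold difference that did not pass (0.46 ± 0.15, limma adjusted p 0.0511), though it passed under 5 alternatives, edgeR and DESeq2 among them.

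IGFBP5 fell with YAP and TAZ siRNAs in every background, by unequal amounts. It had 2950.0 and 2518 CPM in YT libraries, against 5685 and 5119.5 CPM in control libraries. It had 3205 and 3171 CPM in STING_YT libraries, against 4618 and 4355 CPM in STING libraries. It had 5099 and 4879 CPM in cGAS_YT libraries, against 6204 and 6449 CPM in cGAS libraries. The groups of each pair did not overlap, and the cGAS_YT libraries stood above both other groups with YAP and TAZ siRNAs.

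IGFBP5 was 50.6% of control in YT cells (log2 change -0.98 ± 0.11, limma adjusted p 2.24e-06), 71.1% of STING in STING_YT cells (-0.49 ± 0.11, adjusted p 0.00188) and 78.9% of cGAS in cGAS_YT cells (-0.34 ± 0.11, adjusted p 0.0272). The change in the cGAS background differed from that in the control background by 0.64 ± 0.15 (limma interaction, adjusted p 0.0104, and 0.0625 without cGAS library 7). For the STING background the difference of 0.49 ± 0.15 did not pass with limma (adjusted p 0.0634). It passed on recovered reads with edgeR (adjusted p 0.0296) and with DESeq2 (adjusted p 0.005). Without YT library 3 the difference was 0.61. In cGAS_YT against YT cells IGFBP5 was 1.82-fold higher (0.87 ± 0.11, limma adjusted p 8.56e-06), while in cGAS against control cells the change was 0.23 ± 0.11 (adjusted p 0.138). YAP1 itself was 24.6 and 21.7 CPM in cGAS_YT libraries, 24.8% of cGAS, and 16.3 and 13.02 CPM in YT libraries, 13.4% of control. WWTR1 was 17.9 and 18.8 CPM in cGAS_YT libraries and 22.8 and 16.7 CPM in YT libraries, which overlapped. The part of the difference in YAP1 knockdown in the IGFBP5 result was not tested. The fall in the cGAS background was lost when any 1 of its 4 libraries was left out (limma adjusted p 0.0541 to 0.172).

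IGFBP4, an inhibitor of IGF action that PAPPA cleaves, went the other way. It had 589.6 and 616 CPM in YT libraries, against 399 and 416 CPM in control libraries. It had 747 and 703 CPM in cGAS_YT libraries, against 557 and 541 CPM in cGAS libraries. It had 475 and 447 CPM in STING_YT libraries, against 456 and 423 CPM in STING libraries. The groups were apart in the first and second of these pairs and overlapped in the STING pair.

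IGFBP4 rose 1.48-fold in YT against control cells (log2 change 0.57 ± 0.08, limma adjusted p 2.49e-05) and 1.32-fold in cGAS_YT against cGAS cells (0.40 ± 0.08, adjusted p 0.00113). In the STING background the change was 0.07 ± 0.08 (adjusted p 0.516), and the difference from the control background was -0.50 ± 0.11 (limma interaction, adjusted p 0.0102). That call was lost without STING library 13 or STING_YT library 16 (limma adjusted p up to 0.0747). With cGAS siRNAs alone IGFBP4 rose 1.35-fold (0.43 ± 0.08, limma adjusted p 0.000678). In cGAS_YT against YT cells it also rose (0.27 ± 0.08, adjusted p 0.0125, and 0.0933 without cGAS_YT library 9), and in STING_YT against YT cells it fell to 76.5% (-0.39 ± 0.08, adjusted p 0.00117).

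IGFBP7 had 1454 and 1393 CPM in STING libraries, against 2088 and 2137 CPM in control libraries. Both STING libraries were well below both control libraries, and the mean was 67.4% of control (log2 change -0.57 ± 0.15, limma adjusted p 0.0157). This call was lost without any 1 of the 4 libraries, where no member was called (limma adjusted p 0.0737 to 0.111 for IGFBP7). In YT libraries IGFBP7 had 2099 and 1311 CPM, 1 at the control level and 1 far below it, and YT against control did not pass (-0.35 ± 0.15, limma adjusted p 0.0698). Without YT library 3 that change was -0.69 and passed, and without YT library 4 it was -0.01. It had 2151 and 2355 CPM in cGAS_YT libraries, 1714 and 1646 CPM in STING_YT libraries and 1915 and 1851 CPM in cGAS libraries. The cGAS_YT group was above the YT group (0.44 ± 0.15, limma adjusted p 0.0251), a call lost without YT library 4, at 0.10, or without cGAS_YT library 10.

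IGFBP2, known as a carrier of both IGFs, was scarce and ranged from 1.33 to 4.93 CPM. IGF1 lay below it in the STING_YT, YT, STING and control groups. It had 4.11 and 4.93 CPM in cGAS_YT libraries, against 1.94 and 1.33 CPM in cGAS libraries. These did not overlap, and the rise was 2.77-fold (log2 change 1.07 ± 0.22, limma adjusted p 0.00135). It had 4.44 and 4.22 CPM in YT libraries and 3.61 and 4.12 CPM in STING_YT libraries, against 3.06 and 2.39 CPM in control and 3.15 and 2.25 CPM in STING libraries. All 6 libraries with YAP and TAZ siRNAs were thus above all 6 without, but the YT and STING_YT comparisons did not pass (adjusted p 0.0626 and 0.154).

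IGFBP6, which prefers IGF2 over IGF1, ranged from 52.9 to 93.5 CPM. It had 66.6 and 62.4 CPM in cGAS_YT libraries, against 74.8 and 93.5 CPM in YT libraries. The cGAS_YT libraries were lower without overlap (log2 change -0.37 ± 0.11, limma adjusted p 0.014), a call lost without YT library 4 or cGAS_YT library 10 (up to 0.133). No other comparison called it, although YT libraries were above the control libraries, both at 68.6 CPM (0.28 ± 0.11, limma adjusted p 0.0523, and 0.00197 without YT library 3).

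IGFBP2 lies on chromosome 2 at 216632828 to 216664436 on the plus strand, and IGFBP5 lies on the minus strand at 216672105 to 216695525, with 7668 bases between their ends. These neighbours moved in opposite directions in cGAS_YT against cGAS cells, where IGFBP2 rose and IGFBP5 fell. IGFBP3 lies on chromosome 7 at 45912245 to 45921874 and IGFBP7 on chromosome 4 at 57030773 to 57110385, both on the minus strand. IGFBP4 lies on chromosome 17 at 40443461 to 40457731 and IGFBP6 on chromosome 12 at 53097436 to 53102345, both on the plus strand.

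Summed over the 6 binding proteins, transcripts averaged 8172 ± 70.0 CPM in cGAS_YT cells, 5445 ± 99.6 CPM in STING_YT cells and 5170.1 ± 842 CPM in YT cells (SD, n = 2 each). They averaged 9240.5 ± 116 CPM in cGAS, 6660.5 ± 264 CPM in STING and 8171 ± 350.4 CPM in control cells. The cGAS_YT and control means were nearly equal, while the STING_YT and YT groups were the lowest of the 6. IGFBP5 made up 61.0%, 58.6% and 53.1% of the sum in cGAS_YT, STING_YT and YT cells, and 68.5%, 67.4% and 66.1% in cGAS, STING and control cells. IGFBP3 made up 1.66%, 0.730% and 0.756% in the first 3 groups and 4.58%, 3.68% and 2.18% in the others. These sums are given as a description, and follow IGFBP5 and IGFBP7 closely.

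**Figure D4:**
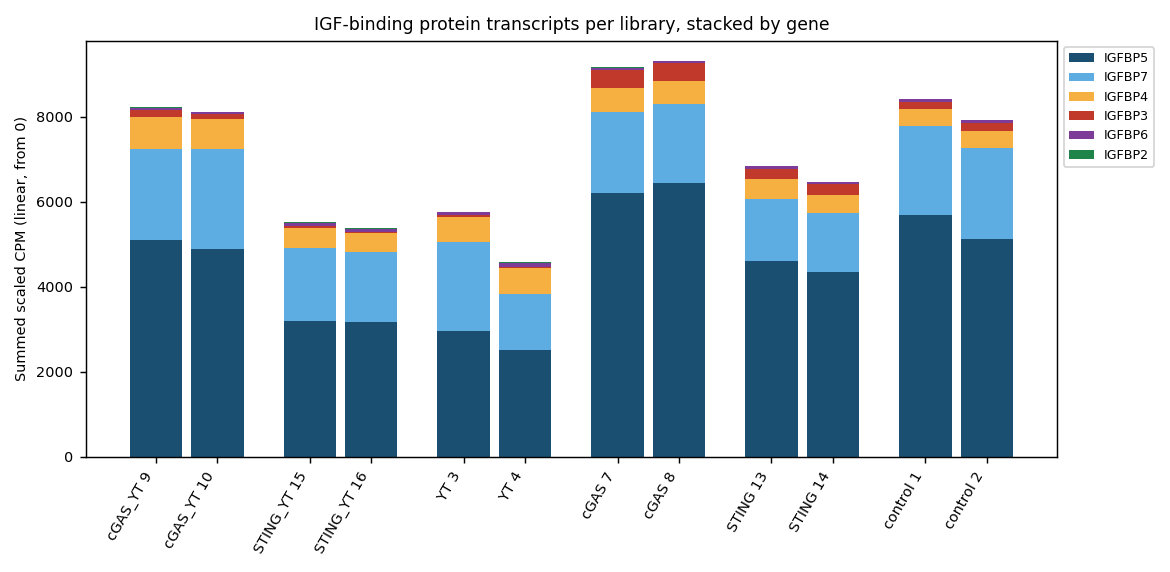
Scaled CPM of the 6 binding proteins in each library, stacked by gene on a linear axis from 0. IGFBP5 forms the largest part of each bar, the YT and STING_YT bars are the lowest, and the cGAS bars are the highest, with a mean sum of 9240.5 CPM.

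The wider pathway was counted in 5 lists of related genes. Of 27 tested genes of IGF signalling below the ligands, 5 rose and 8 fell in YT against control cells, beside 20.6% higher and 20.9% lower over all genes, with a median log2 change of -0.01. The lowest adjusted p there belonged to IRS2, an adaptor of the IGF and insulin receptors, which had 31.8 and 25.5 CPM in YT libraries, against 81.5 and 83.2 CPM in control libraries. It fell in YT cells (log2 change -1.50 ± 0.11, limma adjusted p 2.06e-08), and also in STING_YT against STING cells (-0.68) and in cGAS_YT against cGAS cells (-0.65). Its companion IRS1 fell in YT cells (-0.78 ± 0.08, limma adjusted p 9.86e-07), and had lower levels in cGAS and STING cells too (-0.72 and -0.52, both called). In cGAS_YT against cGAS cells its change was -0.13 (adjusted p 0.274). In cGAS against control cells 2 of the 27 rose and 10 fell, beside 11.1% and 14.3% of all genes, with a median of -0.17, against -0.02 over all genes.

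Of 13 tested proteases and inhibitors that act on the binding proteins, 9 rose and 2 fell in YT against control cells, beside 20.6% and 20.9% of all genes, with a median log2 change of 0.51. In STING_YT against STING cells 7 rose and 3 fell, beside 19.1% and 19.8% of all genes (median 0.28). In cGAS_YT against cGAS cells 2 rose and 4 fell, beside 15% and 12.7% (median -0.06), and in the cGAS interaction 1 was positive and 6 negative, beside 7.50% and 5.93%. PAPPA, the protease that cleaves IGFBP4 and IGFBP5, had 761 and 771 CPM in YT libraries, against 273 and 203 CPM in control libraries. It rose in YT cells (1.70 ± 0.13, limma adjusted p 2.28e-08), in cGAS cells (1.31 ± 0.13, adjusted p 1.53e-06) and in STING_YT against STING cells (1.04 ± 0.13, adjusted p 6.92e-06). In cGAS_YT against cGAS cells its change was 0.03 (adjusted p 0.878). The stanniocalcins STC1 and STC2 inhibit PAPPA, and both rose in YT cells.

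STC1 had 1513 and 1416 CPM in YT libraries, against 135 and 133 CPM in control libraries, a log2 change of 3.44 ± 0.15 (limma adjusted p 4.79e-11). It had 133 and 201 CPM in STING_YT libraries, against 108 and 105 CPM in STING libraries. It had 197 and 151 CPM in cGAS_YT libraries, against 312 and 276 CPM in cGAS libraries. The YT libraries stood far above all others. Against the control background, the change with YAP and TAZ siRNAs differed by -2.82 in the STING and by -4.20 in the cGAS background. STC1 was named by its small p in YT against control, a change that these differences subtract, so they are a description. STC2 rose by 0.71 in YT cells, and PLAT, tissue plasminogen activator, rose by 1.33 in YT cells and fell by 2.64 in cGAS cells, each against control.

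Of 11 tested genes outside the members with an IGFBP-like domain, 4 rose and 3 fell in YT against control cells, beside 20.6% and 20.9% of all genes. The 3 that fell were CYR61 (-3.52 ± 0.13), CTGF (-2.68 ± 0.15) and CRIM1 (-2.37 ± 0.18). In cGAS_YT against cGAS cells their changes were -0.86, -1.71 and -0.55, all called lower. In STING_YT against STING cells they were -1.95, -2.75 and -1.87, all called lower. The cGAS interaction was 2.66, 0.98 and 1.82 for these 3 genes. They were named by their small p in YT against control, a change that the interaction subtracts, so these values are a description. Over the 11 genes the cGAS interaction was positive for 3 and negative for 3, beside 7.50% and 5.93% of all genes. CYR61 and CTGF are matricellular proteins known as targets of YAP and TAZ. IGFBP1, a binding protein of the family that is not among the 10 members, had 4.81 and 3.76 CPM in YT libraries, against 0 and 0.227 CPM in control libraries. In the other 8 libraries it lay between 0 and 0.406 CPM, near the 0.142 to 0.170 CPM that 3 reads are worth. IGFBP1 entered the test only through the YT libraries and so had to differ there. Its place among the 4 that rose is a description.

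Of 12 genes known as FOXO targets, which AKT restrains, 4 rose and 4 fell in YT against control cells, beside 20.6% and 20.9% of all genes. TXNIP fell (-1.29) and TRIB1 rose (1.19). PDK4 had 7.08 and 5.76 CPM in YT libraries, against 0.05 and 0 CPM in control libraries. PDK4 reached 1 CPM only in YT and STING_YT libraries, so its place among the 4 that rose is a description. Of 5 tested neighbours of IGF2 on chromosome 11, CDKN1C, an imprinted inhibitor of the cell cycle, alone rose in YT against control cells (0.78 ± 0.13, limma adjusted p 0.000178), beside 20.6% of all genes. CDKN1C also rose in STING_YT against STING cells (0.98) and in cGAS_YT against cGAS cells (0.94), where IGF2 did not pass. The other neighbours KCNQ1OT1, CD81 and MRPL23 had changes of 0.43, 0.15 and 0.25 in YT cells that did not pass.

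The genes most like IGF1 and IGFBP3, the members with the widest range of group means, were found among 10251 other genes by Pearson correlation over the 6 group means. For IGF1 they were SRPRA (r = 0.994), BNIP1 (0.993), STYX (0.989), SLX4 (0.989) and UEVLD (0.988). For IGFBP3 they were ERCC2 (0.994), WBP11 (0.994), TRAPPC13 (0.993), TUBGCP3 (0.993) and TTF2 (0.992). These are descriptions over 6 points that share their libraries. SRPRA averaged 135 CPM in cGAS_YT and 115 CPM in cGAS cells, and between 83.0 and 87.4 CPM in the other groups, a far narrower range than that of IGF1.

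The 3′ untranslated regions of the members were searched for a heptamer picked in each comparison from 15723 heptamers over 9605 genes. It was the heptamer whose presence had the most negative log2 estimate relative to its SE, adjusted for the region's length and GC content. For cGAS against control this was GCATTCA, found in 11.8% of the regions, with a median change of -0.16 in genes that held it and -0.02 in the others. Among the members IGF1, IGF1R and IGFBP5 held it, while IGF2 and IGF2R, which fell in that comparison, did not. For STING against control it was GTCATAT, found in 9.80% of the regions. IGF1R, IGF2R and IGFBP5 held GTCATAT, and IGFBP7, which fell, did not. For YT against control the heptamer was GGAACTT, found in 12.4% of the regions. IGF1 held GGAACTT, and IGFBP3 and IGFBP5, which fell, did not.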

How the data were processed

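Libraries came from a kit that sequences transcript 3′ ends, per the labels' protocols. STAR 2.5.3a, featureCounts, edgeR and the hg38 build are named in the submitters' processing notes; strand setting and annotation: not given in the sources used here. Each gene has 1 deposited signal value in each library, and the values show these to be CPM that the authors scaled by TMM factors. For 100% of entries the signal was a whole multiple of 1 read (tolerance 0.01 reads). The recovered counts came to 17790774 to 20650727 reads per library, with scaling factors of 0.969 to 1.025. A value of 0 allows up to 3 reads, worth 0.142 to 0.170 CPM, counting error only.

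The design, planned for CPM, was not altered. limma 3.58.1 (R 4.3.3, prior set by intensity) was run on log2(CPM + 1) of 13894 genes that reached 1 CPM in 2 or more libraries, with the 12 libraries in 1 model (residual degrees of freedom 6, prior 10.1). Each of 9 contrasts had its p-values adjusted by Benjamini-Hochberg over all genes, with a threshold of 0.05. The alternatives changed the pseudocount (0.25 or 4), the filter (none or 5 CPM), the scaling (median of ratios), the prior (constant) or the libraries fitted (the compared groups alone, or 1 library left out), or ran edgeR 4.0.16 or DESeq2 1.42.0 on recovered reads. The scripts were tested on simulated counts. Positions are from GENCODE release 29.

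The members, lists and tests were chosen with earlier results of these data known. Named genes were the 10 members, up to 4 genes of each of 5 lists by smallest adjusted p in YT against control, and, for the 2 members of widest range with a mean of at least 5 CPM, the 5 genes most like each. Markers and targeted genes were named as checks. Some of the genes this rule names are not reported here.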

Additional observations from a re-analysis of the deposited data

Results flagged for a closer look

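In 3 results the limma interaction test between backgrounds was passed for the effect of the YAP and TAZ siRNAs. That of IGF1 is a description only. For IGF1 the change was larger in the cGAS background than in the control background by 1.47 on the log2 scale. The adjusted p was 0.00428 with limma and 0.0552 with edgeR. IGF1 passed the level filter only through libraries with cGAS siRNAs. Its YT and control values rest on 22 and 21 reads, where the pseudocount of 1 CPM keeps any log2 change small. The IGF1 interaction therefore mostly restates the rise in cGAS_YT against cGAS cells. For IGFBP5 the change was less negative in the cGAS background than in the control background by 0.64 (adjusted p 0.0104). For IGFBP4 the change in the STING background differed from that in the control background by -0.50 (adjusted p 0.0102).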

How the results depend on the processing

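Over 10 members and 9 contrasts, 31 results were called, beside 7.88% to 41.6% of all genes in the single contrasts. All 31 kept their direction under each alternative that gave them a value, and 20 also kept the call. The 31 include IGF1 in cGAS against control, in cGAS_YT against YT and in the cGAS interaction, which are descriptions. IGFBP2 was not tested under the minimum of 5 CPM, which it does not reach. Another 26 were called only under an alternative, and 33 never. No paired analysis was possible because each replicate number occurs once. The cause of the changes below was not tested.

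STING against control had 1 member called. It had 2 with a pseudocount of 4, with median of ratios scaling, in a fit of only the groups compared and with edgeR, and 3 with DESeq2. It had 0 with limma's constant prior, where 3 members had an unadjusted p under 0.05, and 0 without any 1 of its 4 libraries, where 2 or 3 had. cGAS_YT against YT had 7, and 4 in a fit of only the groups compared. The cGAS interaction had 2, 1 with edgeR, and 1 to 4 with a library left out (1 without cGAS library 7, 4 without YT library 3 or 4). The STING interaction had 1, 0 with the constant prior (3 with an unadjusted p under 0.05), and 2 with edgeR and with DESeq2. With a library left out it had 0 to 4, 0 without STING library 13 or STING_YT library 16 (3 with an unadjusted p under 0.05 in each), 2 without YT library 4 and 4 without YT library 3. STING_YT against YT had 1 member called, and 1 to 5 with a library left out (5 without YT library 3, 3 without YT library 4).

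Among the 26 results called only under an alternative, sign changes came mostly from leaving out YT library 3 or 4. Sign changes in the 33 results never called were not tallied. The IGF2R change ranged from -0.0055 to 0.88 in YT against control, from -0.20 to 0.69 in STING_YT against YT, from -0.73 to 0.16 in the cGAS interaction and from -0.14 to 0.74 in the STING interaction. The IGFBP7 change in STING_YT against YT was -0.0201 with edgeR, -0.0277 with DESeq2, and -0.32 to 0.36 with a library left out. The call of IGF1R in YT against control was lost with the constant prior, in a fit of only the groups compared, and without control library 2 or YT library 3; that in cGAS_YT against cGAS was lost under 6 alternatives. The fall of IGF2 and IGF2R in cGAS cells and the changes of IGFBP3 with cGAS or with YAP and TAZ siRNAs kept their calls throughout.

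Over all genes, 5773 were called in YT against control and 3844 in a fit of only the groups compared. The STING interaction called 1095, and 703 with the constant prior. With a library left out, counts were as low as 2043 of 3528 in cGAS against control, 878 of 2084 in STING against control, 2256 of 3848 in cGAS_YT against cGAS and 3010 of 4731 in STING_YT against YT. They ran from 1106 to 3248 (1866 with all libraries) in the cGAS interaction and from 550 to 2539 in the STING interaction. IGF1 outside the cGAS_YT and cGAS groups rests on 21 to 23 reads per group.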
